A study of Homo sapiens with 17 samples.

Results

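The step from 1 h to 3 h of exposure to TRAIL was examined in MDA-MB-231, an established human line from a triple-negative breast cancer, which the labels class as mesenchymal and Basal B. TRAIL is a ligand of the TNF family that binds death receptors. Cells of both groups were grown in RPMI with serum and given the same 45 nM of TRAIL, a dose described as suboptimal. The comparison sets the 3 libraries taken at 3 h against the 2 taken at 1 h, that is, 5 of the 17 libraries of a series that also holds 3 each at 0, 6, 12 and 24 h. The labels speak of triplicates, and 2 libraries at 1 h were analysed here. All 17 libraries, those at 0 h included, carry the same treatment label and no later library is labelled as untreated. The time with TRAIL and the time in culture or handling therefore cannot be told apart. The labels do not say that replicates came from separate cultures, so p-values measure the spread between these libraries, which may be technical.

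When TRAIL gathers its death receptors, caspase-8 can start apoptosis, and the same receptors can signal through adaptor and ubiquitin-editing proteins to the IKK kinases and so to NF-kB. In the canonical branch the inhibitor IkB-alpha (NFKBIA) is degraded and dimers such as p50/RELA enter the nucleus. In the noncanonical branch the kinase NIK (MAP3K14) leads to processing of p100 (NFKB2) and to p52/RELB dimers. Many direct targets of NF-kB are its own inhibitors and brakes, together with chemokines that attract neutrophils. MAP kinases reach AP-1 and the immediate-early genes in parallel. The title of the series names NFKB2, cytokine production, neutrophil chemotaxis and immune suppression, and the interval from 1 h to 3 h is the one in which such genes can be followed from the first hour into the early response.

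The values are expected counts per gene, that is, estimated numbers of fragments. The 1 h libraries held 16104179 and 15757260 counts and the 3 h libraries 14118855, 13731497 and 14520444, so every 3 h library was shallower than both at 1 h. Between 20530 and 21041 genes had a count in these 5 libraries. Levels below are in CPM, that is, counts scaled to a common library total after TMM scaling. They are not divided by transcript length, so they compare libraries and not genes. Mitochondrial transcripts took 7.65% and 9.71% of counts at 1 h and 7.99% to 8.97% at 3 h. Of the line's markers, VIM (3500 CPM at 1 h and 3610 CPM at 3 h), CD44, AXL, FN1 and ZEB1 were present, while SPARC, also listed as a marker of the line, had at most 15 counts in a library. ESR1 had at most 2 counts and PGR was at 0. ERBB2 (59.3 and 61.2 CPM) and EPCAM (17.6 and 15.5 CPM) were measurable. Of the 15 markers of leukocytes, endothelium, fibroblasts and erythroid cells, CD3E, CDH5, DCN and HBB were at 0 and PTPRC had at most 3 counts. Others of the same cell types were measurable, among them COL1A2 (71 to 118 counts in a library), CD14 (19 to 28) and PECAM1 (11 to 25). The summed level of the 15 was 98.1 and 98.4 CPM at 1 h and 83.5 to 84.0 CPM at 3 h. Of the 15, CD68 was called lower at 3 h (77.5 to 60.5 CPM) and COL1A1 higher (10.2 to 14.8 CPM), and the part of such cells in any result was not tested.

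Between 1 h and 3 h, 487 genes rose and 393 fell of 15365 tested, and most steps were small. A gene is called here when its p-value from the edgeR quasi-likelihood test, adjusted over all genes tested, is below 0.05. The called genes made up 5.73% of those tested, with 3.17% higher and 2.56% lower. The median log2 fold change was 0.438 among the genes that rose and -0.467 among those that fell, against -0.006 over all genes tested. A change of at least 2-fold was reached by 38 genes that rose (0.247% of those tested) and 27 that fell (0.176%). In every called gene the 3 libraries at 3 h lay wholly above or wholly below the 2 at 1 h. Such separation alone is common with 5 libraries, and was seen upward in 16.5% and downward in 17.1% of all genes tested. The same fit called 48 genes between 0 h and 1 h (0.312%) and 2727 between 0 h and 3 h (17.7%), comparisons that share libraries with this one. The counts depended on the 1 h libraries: without replicate 1 at 1 h, 166 genes were called higher and 105 lower, and without replicate 2, 231 and 210. Without 3 h replicate 1 the counts were 284 and 211, and 25 genes rose at least 2-fold. Without 3 h replicate 2 they were 341 and 233. Without 1 h replicate 1, 24 genes rose at least 2-fold.

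**Figure D1:**
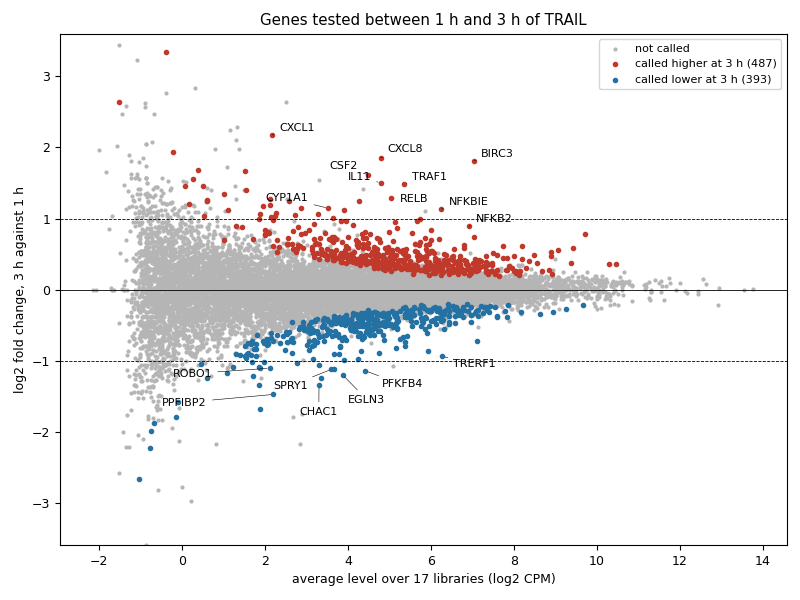
Log2 fold change from 1 h to 3 h (vertical axis) against average log2 CPM over all 17 libraries (horizontal axis) for the 15365 genes tested, with the 487 genes called higher in red, the 393 called lower in blue and some of the named genes labelled; dashed lines mark 2-fold. The vertical axis ends at 3.6 in both directions, beyond which lie 33 genes, 0 of them called, and BIRC3, CXCL8 and CXCL1 stand at the top among the labelled genes.

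The clearest group was the NF-kB system itself. Of 17 tested genes for its subunits, inhibitors and kinases, 7 rose and none fell, and the median log2 fold change was 0.315, beside 3.17% of all genes called higher. NFKB2, which encodes p100 and its product p52 (chr10:102394110-102402529 on the plus strand, GRCh38), read 83.4 and 91.6 CPM at 1 h and 161, 178 and 148 CPM at 3 h. The groups did not overlap, and the log2 fold change was 0.89 ± 0.08 (SE; adjusted p = 4.42e-07). Its mean of 87.5 ± 5.82 CPM (SD, n = 2) at 1 h was close to the 80.3 CPM at 0 h, and the comparison of 1 h with 0 h was not called (log2 fold change 0.12, adjusted p = 0.987). RELB, the partner of p52, stepped more steeply, from 17.8 and 19.5 CPM to 44.9, 46.3 and 45.7 CPM (log2 fold change 1.29 ± 0.10, adjusted p = 7.31e-08). The 3 libraries at 3 h differed by less than 2 CPM. BCL3, an atypical IkB protein that works with p50 and p52 dimers, went from 11.1 and 10.6 CPM to 26.3, 27.6 and 23.3 CPM (1.25 ± 0.13, adjusted p = 5.44e-06).

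Inhibitors of the canonical branch also rose. NFKBIE, which encodes IkB-epsilon, read 50.1 and 54.7 CPM at 1 h against 111, 122 and 112 CPM at 3 h (log2 fold change 1.13 ± 0.07, adjusted p = 5.9e-09). NFKBIA read 69.5 and 72.5 CPM against 120.0, 115 and 113 CPM (0.71 ± 0.07, adjusted p = 2.3e-06). The mean of NFKBIA was 44.3 CPM at 0 h and 71.0 CPM at 1 h. NFKB1, the gene of p105 and p50, went from 40.3 and 33.6 CPM to 53.5, 55.1 and 62.5 CPM (0.62 ± 0.11, adjusted p = 0.00138). The kinase gene MAP3K14 rose by 0.31 (adjusted p = 0.0199), a call lost on leaving out any of 4 libraries (highest adjusted p 0.257, without 1 h replicate 1), and its expected counts were not whole in 15 of 17 libraries. RELA (0.11, adjusted p = 0.391), the kinase subunit genes CHUK (0.01), IKBKB (0.12) and IKBKG (0.08) and the related kinase TBK1 (0.02) were not called. REL had a larger value of 0.52 that was not called either (adjusted p = 0.303).

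Genes that feed back on this signal downstream of the receptor gave 7 higher (41.2%) and none lower of 17 tested, with a median log2 fold change of 0.258. Over all genes tested 3.17% were called higher and 2.56% lower, and these shares are the background for each list count below. TRAF1, an adaptor that binds the cIAP proteins, read 16.5 and 17.8 CPM at 1 h and 47.2, 48.2 and 48.0 CPM at 3 h (1.48 ± 0.09, adjusted p = 3.6e-09). TNFAIP3, which encodes the ubiquitin editor A20, went from 13.0 and 13.5 CPM to 26.8, 25.1 and 25.7 CPM (0.96 ± 0.11, adjusted p = 1.08e-05). In both genes the libraries of a group agreed closely and the groups stood apart. TRAF3, part of the complex that keeps NIK low, rose from 38.4 and 36.6 CPM to 53.8, 51.9 and 50.8 CPM (0.48 ± 0.08, adjusted p = 0.00128). The other 4 rose by 0.45 (TRAF2), 0.32 (TRAF4), 0.28 (TNFAIP2) and 0.26 (TNIP1), and each call was lost without at least 1 library. The highest adjusted p-values were 0.0553 for TRAF2, 0.247 for TRAF4 and 0.432 for TNFAIP2, all without 1 h replicate 1, and 0.105 for TNIP1, without 1 h replicate 2. CYLD, a deubiquitinase, was just short of the threshold (0.33, adjusted p = 0.081), and RNF31, RBCK1 and SHARPIN of the linear ubiquitin assembly complex lay between 0.05 and 0.19. Over the 5 settings that leave out 1 library, 6 to 8 of the subunit list and 3 to 7 of the feedback list were called higher.

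BIRC3 encodes cIAP2, a ubiquitin ligase that restrains caspase-8 signalling and NIK. This gene read 58.4 and 54.4 CPM at 1 h and 198, 179 and 217 CPM at 3 h (log2 fold change 1.81 ± 0.11, adjusted p = 3.6e-09), with the lowest library at 3 h well above both at 1 h. Its neighbour BIRC2, which encodes cIAP1, rose by 0.47 (adjusted p = 0.0058), a call lost without 1 h replicate 2 (adjusted p = 0.0959). Apart from the 2 cIAP genes, the receptor and apoptosis list moved little: of 26 tested, 3 rose and none fell, and the median was 0.012. The third was the receptor gene TNFRSF10A (0.29, adjusted p = 0.0416), which lost its call without any one of the 5 libraries (highest adjusted p 0.237, without 1 h replicate 2) and had fractional counts in 16 libraries. TNFRSF10B, the other signalling receptor, gave 0.18 (adjusted p = 0.115), CASP8 -0.08, FADD -0.13, CFLAR 0.21 (adjusted p = 0.0611), MCL1 0.14, BCL2L1 -0.02 and XIAP 0.16, none of them called. In bulk RNA a change in each cell and a change in the share of responding cells cannot be told apart.

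Promoters of several genes that rose hold the letters of an NF-kB site, and those printed were picked because they hold them. Over all genes called higher the letters were in 8.40% of promoters, against 7.69% over all genes tested. The windows run from 250 bases before to 50 bases after the RefSeq start (GRCh38.p14), 5′ to 3′ on the strand of the gene, and capitals mark matches on either strand to the NF-kB letters, that is, GGG, any 3 bases, then TTCC. For the feedback genes BIRC3 (chr11:102317234-102317533, plus strand), NFKBIA (chr14:35404700-35404999, minus strand) and TNFAIP3 (chr6:137867009-137867308, plus strand) they read:
BIRC3: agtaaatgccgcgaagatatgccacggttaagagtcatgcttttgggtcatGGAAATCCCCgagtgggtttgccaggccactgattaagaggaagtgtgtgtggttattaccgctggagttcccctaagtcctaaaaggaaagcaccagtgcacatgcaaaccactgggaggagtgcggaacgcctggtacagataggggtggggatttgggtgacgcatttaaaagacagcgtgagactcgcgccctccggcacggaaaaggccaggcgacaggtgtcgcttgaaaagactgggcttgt
NFKBIA: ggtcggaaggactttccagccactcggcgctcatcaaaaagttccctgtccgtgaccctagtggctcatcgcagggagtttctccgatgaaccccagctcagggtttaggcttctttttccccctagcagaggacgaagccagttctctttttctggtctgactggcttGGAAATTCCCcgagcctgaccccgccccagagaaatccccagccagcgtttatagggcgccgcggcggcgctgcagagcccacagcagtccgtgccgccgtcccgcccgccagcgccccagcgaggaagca
TNFAIP3: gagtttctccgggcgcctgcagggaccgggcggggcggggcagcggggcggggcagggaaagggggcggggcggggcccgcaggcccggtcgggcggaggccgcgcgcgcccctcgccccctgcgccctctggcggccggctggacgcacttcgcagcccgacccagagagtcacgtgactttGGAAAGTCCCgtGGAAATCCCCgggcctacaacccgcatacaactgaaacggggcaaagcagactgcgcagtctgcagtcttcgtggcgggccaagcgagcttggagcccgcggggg
The match begins 199 bases before the start in BIRC3 and 81 bases before it in NFKBIA, and TNFAIP3 holds matches at 67 and 55 bases. None of these matches overlaps one of the AP-1 or CArG motifs searched.

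The 3 GRO chemokine genes, which lie together on chromosome 4, carry a match at nearly the same distance. The windows are CXCL1 (chr4:73869143-73869442, plus strand), CXCL2 (chr4:74099146-74099445, minus strand) and CXCL3 (chr4:74038640-74038939, minus strand), and the capitals span a pair of matches on opposite strands that overlap by all but 1 base:
CXCL1: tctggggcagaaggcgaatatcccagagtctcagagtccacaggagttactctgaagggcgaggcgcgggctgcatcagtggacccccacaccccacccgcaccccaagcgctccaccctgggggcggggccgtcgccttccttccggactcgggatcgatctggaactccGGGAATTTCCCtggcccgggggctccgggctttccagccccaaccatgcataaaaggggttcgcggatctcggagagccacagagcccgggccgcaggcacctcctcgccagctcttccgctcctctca
CXCL2: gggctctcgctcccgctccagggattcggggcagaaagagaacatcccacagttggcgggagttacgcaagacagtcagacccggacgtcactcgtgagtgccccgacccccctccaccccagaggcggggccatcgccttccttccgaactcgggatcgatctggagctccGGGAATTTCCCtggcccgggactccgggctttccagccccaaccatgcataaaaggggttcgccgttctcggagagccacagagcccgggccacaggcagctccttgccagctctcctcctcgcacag
CXCL3: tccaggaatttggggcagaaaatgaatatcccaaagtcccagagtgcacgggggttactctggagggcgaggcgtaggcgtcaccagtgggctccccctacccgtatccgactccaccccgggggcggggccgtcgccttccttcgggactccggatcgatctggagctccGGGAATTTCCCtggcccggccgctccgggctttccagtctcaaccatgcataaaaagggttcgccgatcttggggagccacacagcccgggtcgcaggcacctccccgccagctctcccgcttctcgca
The first match begins 79 bases before the start in CXCL1 and CXCL3 and 78 bases before it in CXCL2. Reads from such similar genes can be divided between them. CXCL1 had whole counts in all libraries, and CXCL2 had fractional counts in 2.

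All 4 ELR chemokine genes that could be tested rose; these encode ligands of CXCR2 that attract neutrophils. CXCL1 had the largest fold change among the genes of the naming rule, which average 2 or more on the log2 CPM scale, and rose from 1.96 and 2.53 CPM at 1 h to 8.82, 10.8 and 10.8 CPM at 3 h (log2 fold change 2.17 ± 0.20, adjusted p = 8.84e-07). CXCL8, which encodes interleukin-8, read 15.8 and 16 CPM against 57.9, 52.7 and 61.7 CPM (1.85 ± 0.13, adjusted p = 1.63e-08). In both genes every 3 h library was more than 3 times any at 1 h. CXCL2 read 5.82 and 5.53 CPM against 15.6, 10.0 and 12.0 CPM, with wider spread at 3 h (1.15 ± 0.16, adjusted p = 0.000155). CXCL3 went from 1.39 and 2.13 CPM to 5.19, 4.89 and 3.87 CPM (1.40 ± 0.31, adjusted p = 0.0088), a call lost without 1 h replicate 1 (adjusted p = 0.181). CX3CL1, the membrane-bound chemokine fractalkine, fell from 3.61 and 3.47 CPM to 2.15, 2.41 and 1.86 CPM (log2 fold change -0.73), a call lost on leaving out any of 4 libraries (highest adjusted p 0.173, without 1 h replicate 1). CXCL10 (0.30), CXCL11 (-0.80), CXCL16 (0.21), CCL5 (0.93), CCL26 (0.20) and CCL28 (-0.20) were not called, and CXCL5, CXCL6, CXCL9, CCL2 and CCL20 had too few counts to be tested. In all, 4 of 11 tested chemokine genes rose and 1 fell, with a median of 0.303.

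The cytokine list held more genes that rose than any other of the 28 lists. Of 19 tested, 9 rose and none fell, with a median of 0.272, and 4 to 9 were called when 1 library was left out. CSF2, the gene of GM-CSF, a growth factor of granulocytes and macrophages, read 16 and 19.0 CPM at 1 h and 57.3, 54.7 and 48.3 CPM at 3 h (1.61 ± 0.13, adjusted p = 2.79e-07). It was also one of the genes already called between 0 h and 1 h (log2 fold change 0.73, adjusted p = 0.0271). IL11, a cytokine of the interleukin-6 family, went from 16.5 and 13.2 CPM to 43.1, 42.2 and 40.9 CPM (1.5 ± 0.09, adjusted p = 3.6e-09), with no step in the first hour (-0.02 between 0 h and 1 h). LIF, of the same family, read 55.2 and 58.9 CPM against 103, 108 and 93.9 CPM (0.83 ± 0.07, adjusted p = 7.54e-07). IL6 itself read 20.5 and 16.6 CPM against 34.3, 29.6 and 32.2 CPM (0.79 ± 0.11, adjusted p = 0.000155). In each of these 4 genes the lowest library at 3 h exceeded the highest at 1 h by more than the spread within either group.

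The other 5 called cytokine genes rest on fewer counts or on smaller steps. CSF1, which encodes M-CSF, rose by 0.27 (adjusted p = 0.0105) and lost its call without either 1 h library (highest adjusted p 0.106, without replicate 2). CSF3, the gene of G-CSF, read 0.38 and 0.53 CPM against 1.41, 1.55 and 0.86 CPM (1.46 ± 0.39), LTB, which encodes lymphotoxin-beta, 0.57 and 0.47 CPM against 1.71, 1.71 and 1.65 CPM (1.69 ± 0.39), and IL24, a cytokine of the interleukin-10 family, 4.05 and 1.33 CPM against 6.08, 5.82 and 4.88 CPM (1.04 ± 0.29). The highest adjusted p-value with 1 library left out was 0.308 for CSF3 (1 h replicate 1), 0.0941 for LTB (1 h replicate 2) and 0.298 for IL24 (1 h replicate 2), and IL24 had fractional counts in at least 15 libraries. TNF had counts of 2 and 1 at 1 h and 9, 9 and 8 at 3 h, after 0 in all 3 libraries at 0 h. Scaled to depth, the ratio of 3 h to 1 h was 6.62, with a 95% exact interval of 2.03 to 34.2 that covers counting error only, and the call (adjusted p = 0.0344) was lost without either 1 h library (highest adjusted p 0.202, without replicate 1). IL1A (0.26), IL1B (-0.13), IL32 (0.20), VEGFA (0.03) and TNFSF10, the gene of TRAIL itself (-0.30), were not called.

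**Figure D2:**
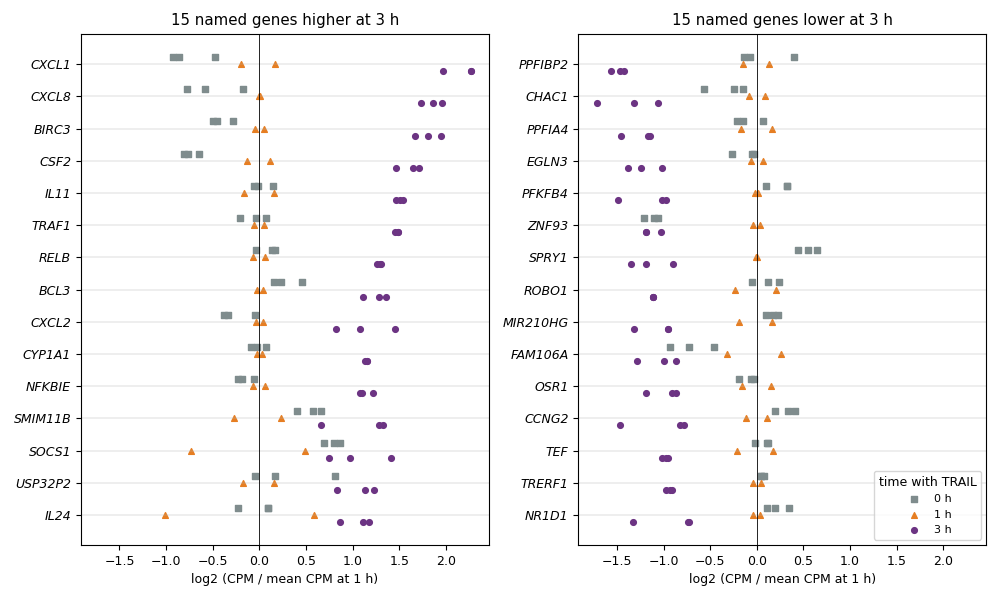
Level of the 15 named genes that rose (left) and the 15 that fell (right) in each library at 0 h (grey squares), 1 h (orange triangles) and 3 h (purple circles), as log2 of CPM over the mean CPM at 1 h on the horizontal axis; each point is 1 library. The rule that picked these genes requires that the points of 1 h and 3 h do not overlap, and it ranks them by fold change, with CXCL1 first. In ZNF93 the points of 0 h lie with those of 3 h.

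Over the genes that rose at least 2-fold, 23 of 38 had a promoter in the table, and 7 of these (30.4%) hold the NF-kB letters. They are BIRC3, CXCL1, CXCL2, CXCL3, LTB, PINLYP and MIR3142HG, the last 2 named because they are among the matches. CXCL1, CXCL2 and CXCL3 are the similar neighbouring genes printed above, with the same letters at the match, so the 7 promoters are not independent. The letters were found in 7.69% of promoters of all tested genes and 6.47% of all promoters of the same length, in 8.40% of all genes called higher, in 6.51% of those called lower, and in 1 of 21 (4.76%) that fell at least 2-fold, namely ELF3. The AP-1 letters TGANTCA were in 4 of 23 (17.4%) promoters of genes that rose at least 2-fold and in 4.84% of tested promoters. The CRE letters TGACGTCA and the CArG box each occurred in 1 of 23, against 3.20% and 1.02% of tested promoters. CXCL8 holds TGANTCA 137 bases before its start and no match to the NF-kB letters in this window. NFKB2, TRAF1, BCL3 and CSF2 hold no match to the NF-kB letters in theirs. NFKB1 holds one 49 bases, IL6 73 bases and LTB 86 bases before the start. Among other called genes named in the text, TRAF3, ANKRD1, CDKN1A, SLC7A5 and SDC4, which rose, also hold a match. So do CCN2 and ELF3, which fell, at 95 and 88 bases before the start. RELB and NFKBIE had no promoter in the table.

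Other NF-kB effectors moved in part. Of 22 tested, 7 rose and 1 fell, and the median of 0.037 was near 0. PLAU, the gene of urokinase, rose from 477 and 458 CPM to 676, 711 and 671 CPM (log2 fold change 0.55 ± 0.06, adjusted p = 6.7e-06), with fractional counts in at least 15 libraries. CD83, a surface protein of activated antigen-presenting cells, read 16 and 15.7 CPM against 26.9, 23.7 and 28.1 CPM (0.73 ± 0.10, adjusted p = 9.1e-05). ICAM1, the adhesion molecule that leukocyte integrins bind, read 37.5 and 38.9 CPM against 53.9, 55.4 and 57.3 CPM (0.54 ± 0.08, adjusted p = 0.00024), and its mean reached 88.7 CPM at 6 h. PTX3 (0.39), IRAK2 (0.59), SDC4 (0.21) and SERPINB2 (1.17) were called higher and ELF3 (-1.03) lower, and all 5 calls were lost without at least 1 library. Their highest adjusted p-values were 0.141 for PTX3 and 0.122 for IRAK2 without 1 h replicate 2, 0.246 for SDC4 and 0.111 for SERPINB2 without 1 h replicate 1, and 0.173 for ELF3 without 1 h replicate 2. Known targets that were not called include SOD2 (-0.17), VCAM1 (-0.38), MMP1 (-0.23), LCN2 (-0.17) and C3 (-0.21).

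Among genes tied to immune suppression, CD274, which encodes PD-L1, rose from 39.9 and 37.9 CPM to 58.4, 57.5 and 56.4 CPM (0.56 ± 0.09, adjusted p = 0.000683). All 3 libraries at 3 h lay above both at 1 h, and its means at 0 h and 6 h were 28.5 and 47.4 CPM. It was the only one of 13 tested genes of this list called higher. PTGES, the inducible prostaglandin E synthase, fell by 0.45 on the log2 scale (adjusted p = 0.0107), a call lost without either 1 h library (highest adjusted p 0.0864, without replicate 2). PTGS2 (0.71, adjusted p = 0.169), PDCD1LG2 (0.35), NT5E (-0.25) and CD276 (-0.20) were not called. SOCS1, an inhibitor of cytokine receptor signalling, was among the 15 highest genes at 1.46 and 3.40 CPM against 4.75, 6.45 and 4.09 CPM (1.07 ± 0.28). Its values at 1 h were far apart, its mean at 0 h was 4.19 CPM, and its call (adjusted p = 0.0252) was lost on leaving out any of 3 libraries (highest adjusted p 0.435, without 1 h replicate 1).

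**Figure D3:**
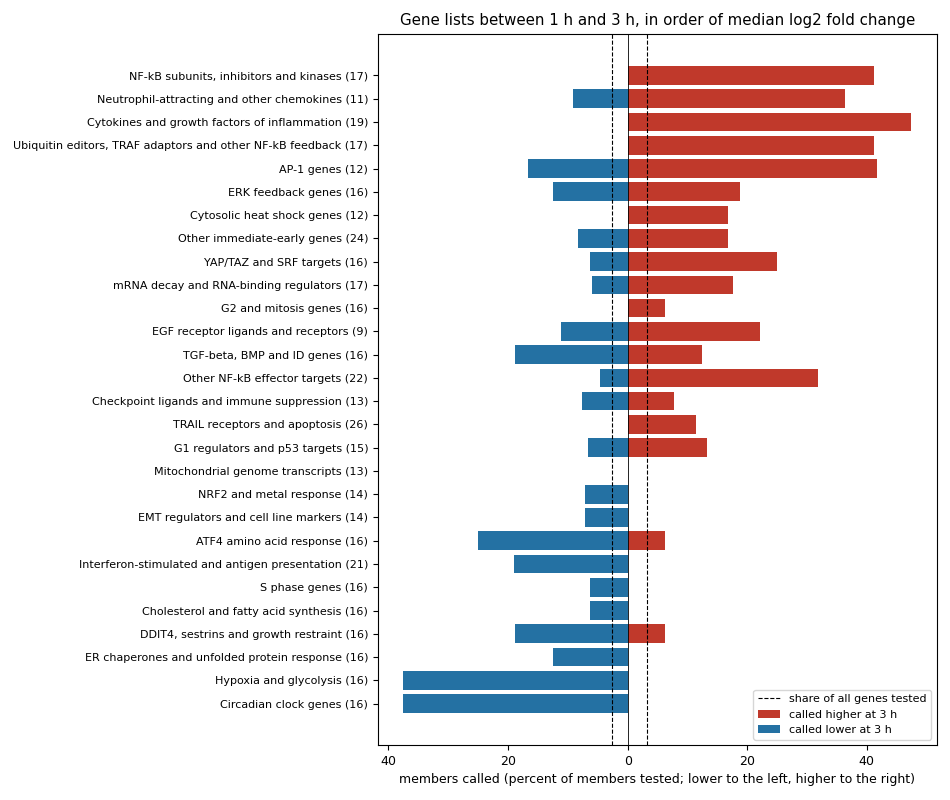
Percent of the tested members of each of the 28 lists called higher (red, to the right) or lower (blue, to the left) at 3 h, with the number tested in parentheses and the lists in order of their median log2 fold change; dashed lines mark the 3.17% and 2.56% of all genes tested. The NF-kB subunit list stands at the top and the hypoxia and clock lists, with red bars of length 0, at the bottom.

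The AP-1 genes divided. Of 12 tested, 5 rose and 2 fell, with a median of 0.195. JUNB read 48.1 and 53.7 CPM at 1 h and 102, 106 and 89.7 CPM at 3 h (0.96 ± 0.11, adjusted p = 1.43e-05), after a mean of 29.4 CPM at 0 h. FOSL1, the gene of the FOS-family protein FRA1, rose by 0.59 ± 0.09 (adjusted p = 0.000452), from a mean of 764 CPM. FOS, in contrast, fell from 20.9 and 24.6 CPM to 13.6, 11.6 and 11.5 CPM (-0.89 ± 0.16, adjusted p = 0.00252), below its mean of 44.0 CPM at 0 h. JUN (0.34), FOSL2 (0.39) and MAFF (0.35) were called higher and ATF3 (-0.47) lower, each losing its call without at least 1 library. The highest adjusted p-values were 0.327 for JUN and 0.0939 for ATF3 without 1 h replicate 1, and 0.18 for FOSL2 and 0.142 for MAFF without 1 h replicate 2. Over those settings 3 to 5 members were called higher and 1 or 2 lower.

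Immediate-early genes outside AP-1 gave 4 higher and 2 lower of 24 tested, with a median of 0.107. IER3, an early response gene that NF-kB can induce, rose from 430.0 and 490.0 CPM to 678, 701 and 612 CPM (0.53 ± 0.09, adjusted p = 0.000633), with fractional counts in at least 15 libraries. ZFP36L1, which encodes a protein that destabilises mRNAs with AU-rich elements, read 170.0 and 151 CPM against 233, 225 and 231 CPM (0.52 ± 0.08, adjusted p = 0.000261). GADD45B, a stress gene, fell from 115 and 131 CPM to 81.8, 86.5 and 73.7 CPM (-0.61 ± 0.09, adjusted p = 0.000313), and its mean of 58.2 CPM at 0 h lay below both groups. The pattern of a higher 1 h mean between lower means at 0 h and 3 h was shared by CCN2, the connective tissue growth factor gene, with 311 CPM at 0 h, 493 and 467 CPM at 1 h and 385, 359 and 417 CPM at 3 h. The fall of CCN2 was 0.31 on the log2 scale (adjusted p = 0.00406) and was not called without 1 h replicate 1 (adjusted p = 0.0826). The values of IER2 (0.41) and ZFP36L2 (0.30) were called, and were lost without at least 1 library (highest adjusted p 0.319 for IER2, without 1 h replicate 1, and 0.25 for ZFP36L2, without replicate 2). EGR1 (-0.04), MYC (-0.13), KLF6 (0.17) and KLF4 (-0.02) were not called.

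Feedback genes of the ERK pathway moved both ways, with 3 higher and 2 lower of 16 tested. SPRY1, a Sprouty inhibitor of receptor tyrosine kinase signalling, fell from 10.2 and 10.3 CPM to 4.52, 4.04 and 5.52 CPM (-1.12 ± 0.13, adjusted p = 1.38e-05). It had already fallen between 0 h, at a mean of 15 CPM, and 1 h (log2 fold change -0.55, adjusted p = 0.0258). Its relative SPRY4 rose by 0.36 (adjusted p = 0.0041), a call lost without 1 h replicate 1 (adjusted p = 0.167). DUSP4 (0.26), DUSP7 (0.31) and SPRED2 (-0.25) were called, but not without at least 1 library (highest adjusted p 0.125 for DUSP4 and 0.0812 for DUSP7, without 1 h replicate 2, and 0.235 for SPRED2, without 1 h replicate 1). DUSP1 (0.01), DUSP5 (-0.20) and DUSP6 (-0.14) were not called. HBEGF, a ligand of the EGF receptor, rose from 96.5 and 101 CPM to 129, 129 and 135 CPM (0.41 ± 0.06, adjusted p = 0.00044). In that list of 9 tested genes TGFA (0.22) was also called higher and ERBB3 (-0.94) lower, each lost without 1 h replicate 1 (adjusted p = 0.127 and 0.141), and TGFA without any of the 5 libraries, at most 0.255.

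Targets of YAP/TAZ and SRF gave 4 higher and 1 lower of 16. ANKRD1, a muscle ankyrin-repeat gene widely used as a YAP target, rose from 414 and 432 CPM to 592, 578 and 614 CPM (0.49 ± 0.07, adjusted p = 0.00011), while CCN2, on the same list, fell as given above. AJUBA (0.34), FHL2 (0.27) and TPM1 (0.23) were called, each lost without at least 1 library (highest adjusted p 0.0838, 0.1 and 0.18, all without 1 h replicate 2). Of 16 genes of TGF-beta and BMP signalling, 2 rose and 3 fell. Of these, SMAD3 (0.21), SMAD7 (-0.40), TGFBR1 (-0.45) and BMP4 (-0.25) were called, with highest adjusted p-values of 0.225, 0.114 and 0.358 without 1 h replicate 1 and 0.206 without 1 h replicate 2.

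Among the genes that fell, 2 lists had the most members. In the first, genes induced by hypoxia or serving glycolysis, 6 of 16 tested fell and none rose, with a median of -0.251, beside 2.56% of all genes called lower. EGLN3, an oxygen sensor that marks HIF proteins for degradation and is itself a HIF target, read 17 and 18.7 CPM at 1 h and 6.82, 7.53 and 8.82 CPM at 3 h (log2 fold change -1.20 ± 0.12, adjusted p = 2.88e-06). PFKFB4, a regulator of glycolytic flux, went from 21.8 and 21.3 CPM to 11, 10.7 and 7.67 CPM (-1.14 ± 0.12, adjusted p = 5.33e-06), with fractional counts in at least 15 libraries. NDRG1, a hypoxia and stress gene, read 159 and 133 CPM against 92.3, 79.9 and 91.6 CPM (-0.73 ± 0.11, adjusted p = 0.000417). In all 3 the means at 0 h (16.5, 25.7 and 168 CPM) were close to those at 1 h, and none was called between them. BNIP3, a mitophagy receptor gene, fell by 0.30 on the log2 scale (adjusted p = 0.00295). SLC2A3, the GLUT3 gene, fell by 0.62 and ANKRD37, a small HIF target, by 0.85, and these calls were lost without 1 h replicate 1 (adjusted p = 0.137) and without 1 h replicate 2 (adjusted p = 0.0905) respectively. VEGFA (0.03), ADM (0.04), SLC2A1 (0.12), CA9 (-0.27), LDHA (-0.14) and PGK1 (-0.23), also classical targets, were not called. MIR210HG, the host transcript of a hypoxia-induced microRNA and outside the list, was among the 15 lowest, at 10.7 and 13.7 CPM against 6.30, 6.29 and 4.88 CPM (-1.07 ± 0.14, adjusted p = 7.44e-05). With 1 library left out, 5 to 7 members of the list were called lower.

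In the second, circadian clock genes, 6 of 16 tested fell and none rose, with a median of -0.315. TEF and DBP encode PAR bZIP factors that drive clock output. TEF read 13.4 and 10.3 CPM at 1 h and 5.86, 6.06 and 6.17 CPM at 3 h (-0.98 ± 0.12, adjusted p = 4.54e-05). DBP read 4.30 and 4.53 CPM against 1.71, 1.79 and 1.72 CPM (-1.34 ± 0.20, adjusted p = 0.000352). The 2 libraries at 1 h were further apart for TEF than for DBP, and in neither gene did the groups overlap. NR1D1, which encodes the repressor REV-ERB-alpha, went from 13.1 and 13.8 CPM to 8.16, 8.08 and 5.38 CPM (-0.90 ± 0.15, adjusted p = 0.000795). NR1D1 and DBP had fractional counts in at least 15 libraries, and NR1D1 lies in an antisense overlap with a neighbouring gene, so its counts are uncertain. NR1D2 (-0.51), BHLHE41 (-0.59) and NFIL3 (-0.34) were called too, but NR1D2 not without 1 h replicate 1 (adjusted p = 0.31), BHLHE41 not without any of 4 libraries (highest 0.17, 1 h replicate 2) and NFIL3 not without any of the 5 (highest 0.267, 1 h replicate 1). The core activators CLOCK (-0.04), ARNTL (0.25) and NPAS2 (0.02), and PER2 (0.13) and CRY2 (0.08), were not called. From 3 to 5 members were called lower with 1 library left out.

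**Figure D4:**
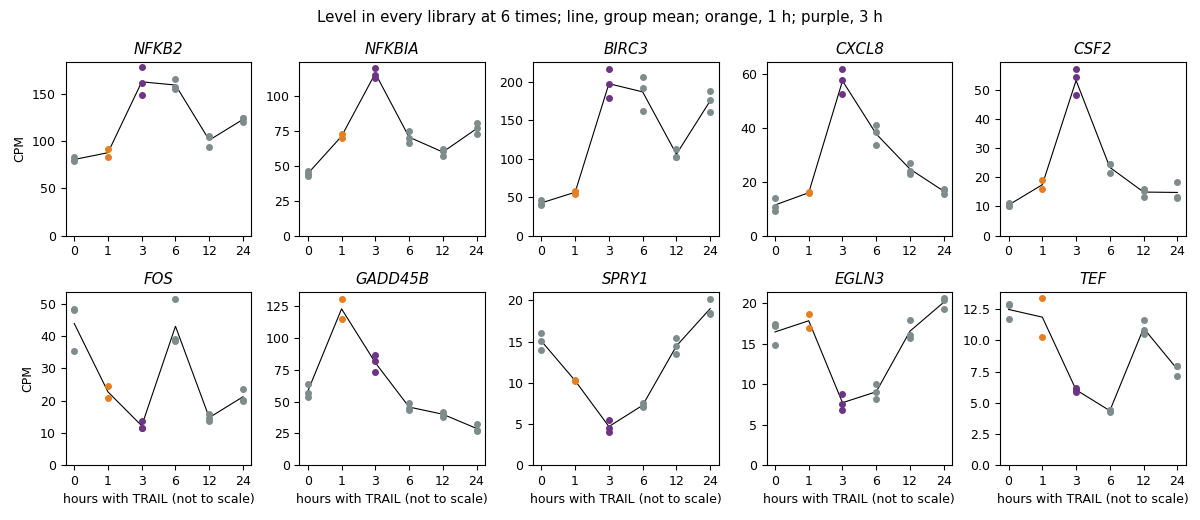
CPM (vertical axis) in each library at 0, 1, 3, 6, 12 and 24 h (horizontal axis, not to scale) for NFKB2, NFKBIA, BIRC3, CXCL8, CSF2, FOS, GADD45B, SPRY1, EGLN3 and TEF, with points for single libraries (orange 1 h, purple 3 h, grey other times) and lines through the group means. NFKB2, BIRC3 and CXCL8 step up between 1 h and 3 h, GADD45B is highest at 1 h, and EGLN3 and TEF are low at 3 h and 6 h.

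The remaining genes of the naming rule that fell have varied roles. PPFIBP2 and PPFIA4 encode proteins of the liprin family. PPFIBP2 had the lowest fold change, at 5.38 and 6.53 CPM against 2.15, 2.02 and 2.22 CPM (-1.48 ± 0.18, adjusted p = 4.09e-05), and PPFIA4 read 13.4 and 16.9 CPM against 6.82, 5.51 and 6.74 CPM (-1.24 ± 0.16, adjusted p = 5.09e-05). In both genes the lowest library at 1 h lay well above the highest at 3 h. TRERF1, a zinc finger transcription regulator, was the best covered of these, at 82.0 and 77.1 CPM against 42.3, 40.4 and 41.7 CPM (-0.94 ± 0.09, adjusted p = 1.67e-06). OSR1, a zinc finger factor of mesenchymal development, read 19.9 and 24.7 CPM against 11.9, 12.2 and 9.75 CPM (-0.99 ± 0.13, adjusted p = 9.55e-05). ROBO1, the receptor of SLIT proteins, read 4.62 and 3.40 CPM against 1.85, 1.86 and 1.86 CPM (-1.11 ± 0.21), a call lost without 1 h replicate 1 (adjusted p = 0.106). FAM106A had fractional counts and a call (-1.04, adjusted p = 0.0446) that no setting with a library left out kept (highest adjusted p 0.279, without 1 h replicate 2). Its span holds that of USP32P2, a gene that rose and is described below. ZNF93, a KRAB zinc finger gene, differed from all of these in its course: 25.6 and 24.3 CPM at 1 h, 11, 11 and 12.3 CPM at 3 h, and 11.5 CPM on average at 0 h. It was called higher between 0 h and 1 h (log2 fold change 1.12, adjusted p = 5.34e-06) and lower between 1 h and 3 h (-1.12 ± 0.11, adjusted p = 2.97e-06), and its later means lay between 9.88 and 11 CPM.

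Of the 15 genes that rose most, those not yet given are CYP1A1, SMIM11B and USP32P2. CYP1A1, a cytochrome P450 induced through the aryl hydrocarbon receptor, read 8.74 and 8.47 CPM against 18.8, 19.2 and 19.1 CPM (1.14 ± 0.12, adjusted p = 3.81e-06), and its mean was back to 8.38 CPM at 12 h. SMIM11B (1.12) and USP32P2 (1.07), near-copies of other loci with fractional counts in at least 15 libraries, are uncertain. USP32P2 lies within the span of FAM106A, which fell (-1.04), on the same strand of chromosome 17. Both had fractional counts in all 17 libraries, so separate changes and a different division of reads cannot be told apart. The calls of SMIM11B and USP32P2 were lost without at least 1 library (highest adjusted p 0.339 for SMIM11B, without 1 h replicate 1, and 0.104 for USP32P2, without 1 h replicate 2).

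Amino acid and growth-restraint genes mostly fell where they changed. In the ATF4 list 4 of 16 fell and 1 rose. CHAC1, which degrades glutathione and is a target of ATF4, went from 15.7 and 17.7 CPM to 8.01, 6.68 and 5.09 CPM (-1.34 ± 0.17, adjusted p = 4.15e-05). SLC7A5, the large amino acid transporter gene, went the other way, from 399 and 385 CPM to 549, 560.0 and 520.0 CPM (0.47 ± 0.06, adjusted p = 0.000124), with fractional counts in at least 15 libraries. DDIT3 (-0.49), TRIB3 (-0.48) and VLDLR (-0.52) were called lower, but DDIT3 and VLDLR not without 1 h replicate 1 (adjusted p = 0.231 and 0.0976) and TRIB3 not without 1 h replicate 2 (adjusted p = 0.0665). ATF4 itself (-0.11), ASNS (-0.03) and PSAT1 (-0.20) were not called. In a list of sestrins and other restraints on growth 3 of 16 fell and 1 rose. CCNG2, an unconventional cyclin linked to quiescence, read 15.9 and 13.7 CPM against 8.60, 5.36 and 8.39 CPM (-0.98 ± 0.15, adjusted p = 0.000404). SESN2, a sestrin that restrains mTORC1, fell by 0.66 (adjusted p = 0.0021), and TSC22D3, the glucocorticoid-induced GILZ gene, by 0.62, a call lost without 1 h replicate 1 (adjusted p = 0.111). CDKN1A, the p21 gene, rose from 115 and 118 CPM to 153, 150.0 and 151 CPM (0.38 ± 0.06, adjusted p = 0.00111).

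Interferon-stimulated genes gave 4 lower and none higher of 21. IFIT2, an interferon-induced tetratricopeptide protein gene, read 53.9 and 50.3 CPM against 36.3, 34.3 and 39.1 CPM (-0.51 ± 0.08, adjusted p = 0.000307), with fractional counts in at least 15 libraries. IFIT1 read 48.7 and 52.8 CPM against 37.9, 38.1 and 35.2 CPM (-0.45 ± 0.08, adjusted p = 0.00112). IFIT3 (-0.31) and MX1 (-0.41) were called but lost without any of 4 libraries (highest adjusted p 0.254 and 0.235, both without 1 h replicate 1). The HLA class I genes (0.00 to 0.07), IRF1 (0.08) and TAP1 (0.14) were not called. The IFIT means at 24 h (79.9 CPM for IFIT1 and 88.4 CPM for IFIT2) were above those at 1 h.

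The remaining lists cover the cell cycle, p53 targets, stress responses, lipid synthesis, epithelial and mesenchymal genes, the mitochondrial genome and mRNA decay. Apart from the mitochondrial list, the share of tested members called in either direction ran from 6.25% to 23.5%, against 5.73% of all genes tested. The lists are small, and 1 call among 16 genes already gives 6.25%. Genes of S phase had 1 lower of 16 (MCM4, -0.23, lost on leaving out any of 3 libraries, highest adjusted p 0.494 without 1 h replicate 1) and 15 of 16 values at or below 0, with a median of -0.105. Genes of G2 and mitosis had 1 higher of 16 (AURKB, 0.27, lost without any of 4, highest 0.411 without 1 h replicate 1). Among G1 and p53 genes CDKN1A and the kinase gene PLK3 (20.6 and 23.4 CPM against 38.3, 40.4 and 30.6 CPM; 0.73 ± 0.12, adjusted p = 0.000877) rose and the antiproliferative BTG1 fell (-0.40 ± 0.06, adjusted p = 0.00039), of 15 tested. All 16 genes of ER chaperones and the unfolded protein response had values below 0, and 2 were called lower, HERPUD1 (-0.36; adjusted p = 0.0517 without 1 h replicate 2) and DNAJB9 (-0.39; highest adjusted p 0.183, without 1 h replicate 1). Heat shock genes gave 2 higher of 12 (HSPA1B, 0.33, and DNAJB1, 0.20; highest adjusted p 0.325 and 0.384 without 1 h replicate 1). In the NRF2 list OSGIN1 was called lower of 14 (-0.33; highest 0.185, without 1 h replicate 2), in the lipid synthesis list SCD of 16 (-0.37; 0.0771 without 1 h replicate 1), and in the list of epithelial and mesenchymal genes CDH11 of 14 (-0.36; highest 0.281, without 1 h replicate 1). None of the 13 transcripts of the mitochondrial genome was called by edgeR, with values from -0.21 to 0.25. Of 17 genes that regulate mRNA decay 3 rose and 1 fell. They are ZFP36L1 and ZFP36L2, given above, BTG1, and TOB2, an antiproliferative adaptor of deadenylation that rose from 18.9 and 18.2 CPM to 32.7, 30.1 and 35.0 CPM (0.82 ± 0.10, adjusted p = 2.37e-05).

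Where edgeR called no member of a list in 1 direction, counts at an unadjusted p and from DESeq2 and limma-voom are given. Over all 15365 genes tested, 3067 had an unadjusted edgeR p below 0.05, both directions together. At that threshold 3 of 14 tested members were higher in the NRF2 list and 2 of 16 in the clock list. In the list of TRAIL receptors and apoptosis 2 of 26 were lower. There was 1 each in the cytokine (lower), interferon (higher) and mitosis (lower) lists. In the NF-kB subunit, feedback and heat shock lists there were 0 lower, in the hypoxia, ER, lipid synthesis, S phase and epithelial and mesenchymal lists 0 higher, and in the mitochondrial list 0 either way. DESeq2 called 1 apoptosis gene lower and otherwise 0 in these directions, and limma-voom called 0.

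The lists together hold 65 of the 487 genes that rose and 43 of the 393 that fell, so most called genes lie outside them. The called genes differed from those tested in properties that the test did not use, and also in level. Genes that rose at least 2-fold were short in the genome, with a median span of 6.70 kb and 0 of 38 over 100 kb, against a median of 27.6 kb and 17% over 100 kb for all genes tested. Genes that fell at least 2-fold had a median span of 52.2 kb, and 9 of 27 (33.3%) exceeded 100 kb. Over all called genes the medians were 23.0 kb for those that rose and 35.6 kb for those that fell. Median GC content of transcripts was 53.1% for genes that rose, 50.7% for those that fell and 49.8% for those tested, and protein-coding genes made up 93.0%, 98.0% and 84.0%. For genes that rose and fell at least 2-fold, the GC medians were 53.5% and 51.3%, and protein-coding genes made up 68.4% and 77.8%. The median average log2 CPM was 5.21 for genes that rose, 4.51 for those that fell and 4.31 for those tested. It was 2.14 and 1.86 for the 2-fold sets, and the part of level in the other differences was not tested. Libraries differed in their trend with transcript length, from -0.045 to -0.015 log2 units per doubling at 1 h and from -0.048 to -0.029 at 3 h, and the part of this in the calls was not tested beyond a fit with length and GC offsets, which called 777 genes higher and 666 lower, among them 480 of the 487 and 385 of the 393. These are descriptions without a test.

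Whether the genes of this step were also changed later was read from comparisons of 6, 12 and 24 h with 0 h. These use none of the 5 libraries in the contrast, but share the filter, the scaling and the estimate of spread. Called genes also differed in level from all genes tested, as given above, and the part of level in the shares below was not tested. Of the 487 genes that rose, 293 (60.2%) were called higher at 6 h, which is 11.3% of the 2602 genes called higher then, against 16.9% of all genes tested. A further 5 (1.03%) were called lower at 6 h, against 13.2% of all genes. Of the 393 that fell, 184 (46.8%) were called lower at 6 h, 9.09% of the 2025 called, against 13.2% of all genes, and 13 (3.31%) were called higher. At 12 h the shares were smaller, 19.3% of the genes that rose called higher (5.96% of all genes) and 13.2% of those that fell called lower (6.48% of all genes). Without 12 h replicate 2 these shares were 12.6% and 8.2%. At 24 h, 25.3% of the genes that rose were called higher and 21.6% lower, against 18% and 17.1% of all genes. Of the genes that fell, 11.2% were called lower at 24 h, against 17.1% of all genes, while 137 (34.9%) were called higher, against 18%. Replicates 2 and 3 were closer to each other than to replicate 1 at 6 h and at 24 h (chi-square per gene 1.57 and 1.67, against 3.44 to 12.3 in the other pairs of replicates). With replicate 3 left out at both times, 50% and 41.3% were shared with 6 h, and 25.6% of the genes that fell were called higher at 24 h.

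**Figure D5:**
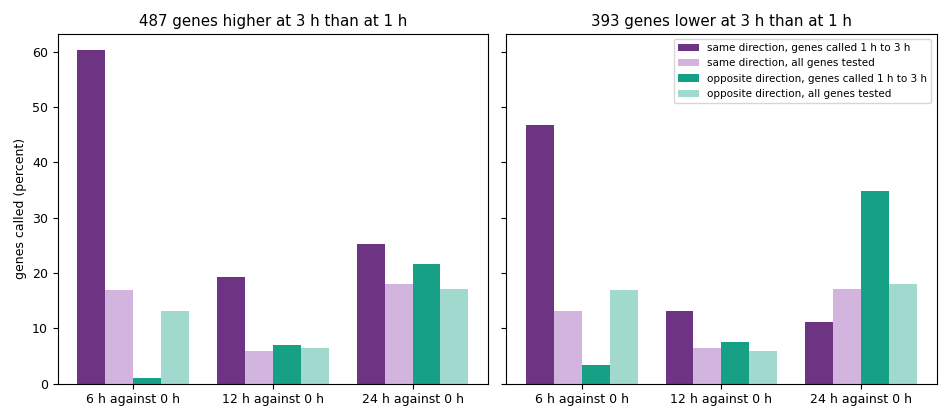
Percent of the 487 genes that rose (left) and of the 393 that fell (right) from 1 h to 3 h that were called in the same direction (purple) or the opposite one (green) at 6, 12 and 24 h against 0 h, with pale bars for the percent of all 15365 genes tested. At 6 h the same direction prevails in both sets (60.2% and 46.8%), and at 24 h more of the genes that fell were called higher (34.9%) than lower (11.2%).

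Single genes show the range of these later courses. BIRC3 stayed high, with means of 187 CPM at 6 h, 106 CPM at 12 h and 175 CPM at 24 h against 42.5 CPM at 0 h. TRAF1 went on to 73.6 CPM at 6 h. CSF2 was down to 23.5 CPM at 6 h and 15 CPM at 12 h, and CXCL8 to 37.7 and 24.7 CPM. FOS returned to 43.1 CPM at 6 h, near its mean at 0 h. Among the genes that fell, EGLN3 was at 9.09 CPM at 6 h and 20.2 CPM at 24 h, and SPRY1 at 7.27 and 19.0 CPM. TEF was at 4.37 CPM at 6 h and 7.68 CPM at 24 h, below its 12.5 CPM at 0 h. CCNG2 was back at 22.1 CPM by 6 h, above its mean of 18.4 CPM at 0 h.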

How the data were processed

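RNA of MDA-MB-231 was sequenced from stranded poly(A) libraries, per the labels' protocols. The authors deposited expected counts per gene from RSEM, per the name of the deposited table, not scaled to depth or length. The submitters' processing notes list cutadapt 1.18, STAR 2.7.0f and hg38. The annotation and strand setting are not given in the sources used here. Of the values the authors deposited, 10.8% had a fractional part, which arises where fragments are divided between genes. Fractional counts in at least 15 libraries are given beside the genes described most fully, and were also found in CCN2, TPM1, BNIP3, ANKRD37, DDIT3 and HSPA1B among the called genes named.

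Values were rounded to whole counts and tested with edgeR 4.0.16 (R 4.3.3): filterByExpr, TMM, and a robust quasi-likelihood fit of 1 mean per time to all 17 libraries, with Benjamini-Hochberg adjustment over 15365 genes. Standard errors come from the coefficient and F statistic. All adjusted p-values of single genes are from this test. The steps were tested on simulated data. The common biological coefficient of variation was 7.06%, and totals of 13731497 to 16104179 counts set the precision in the 5 libraries. Positions are from GENCODE 29 (GRCh38), which matched 58597 of 58870 entries, and promoters from RefSeq (GRCh38.p14), which matched 10563 tested genes. Where a symbol had several promoters, the first listed was used.

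The comparison and the 28 gene lists (463 symbols, 438 tested) were chosen with earlier results of these data known, so lists are described by counts and medians without a test. Named genes are the 15 highest and 15 lowest by log2 fold change among called genes averaging 2 or more on the log2 CPM scale, with groups that do not overlap, leaving out clone and Ensembl names. List members and NFKB2 were added, and a few genes are not reported here. Alternatives were other scalings and filters, DESeq2 1.42.0, limma-voom (limma 3.58.1), non-robust estimation, unrounded counts, length and GC offsets, only the libraries at 1 h and 3 h, the replicate number as a block, and each library left out. Leaving out 1 h replicate 2 with 3 h replicate 2, the libraries with the largest mitochondrial shares of their groups, and leaving out libraries at other times were added after seeing the data.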

Additional observations from a re-analysis of the deposited data

How the results depend on the processing

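No gene called higher or lower changed the sign of its fold change in any of the 19 settings in which it was tested. In every called gene the groups did not overlap, so leaving out libraries could hardly turn a sign. The kept signs are therefore no measure of stability. Of 120 single genes, 50 kept their call in all of the settings, but the number of calls moved. Without a filter 630 genes fell, 82 rose at least 2-fold and 68 fell at least 2-fold. With only the 1 h and 3 h libraries 195 rose and 117 fell. Length and GC offsets gave 777 and 666, and offsets with the replicate block 853 and 748. Leaving out 1 h replicate 2 and 3 h replicate 2 gave 164 and 109, and 13 that fell at least 2-fold. With 1 library left out the counts ran from 166 to 550 higher, 105 to 413 lower, 24 to 43 higher at least 2-fold and 19 to 29 lower at least 2-fold. Other scalings, a mean count of at least 10, DESeq2, limma-voom, non-robust estimation and unrounded counts stayed within 1.5 times, at 384 to 594 higher and 344 to 499 lower. The cause of these movements was not tested. The smaller fits have fewer samples.

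The replicate number as a block gave 573 higher and 475 lower, of which 454 and 370 were calls without it. Whether the numbers pair the samples could not be settled. The correlation of deviations of same-numbered libraries was 0.0054 and 0.14 between 1 h and 3 h. With only 2 libraries at 1 h, their deviations mirror each other, so these values can neither show nor exclude pairing. Over all times, 8 of 40 same-numbered pairs exceeded 0.1, and the values ran from -0.20 to 0.21.

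The share of genes that fell and were called lower at 6 h was 30.8% without a filter. With 1 library left out it ran from 37.5% to 72.4%, and the share of genes that rose and were called higher at 6 h from 50% to 82.5%. At 12 h these ranges were 12.6% to 30.7% higher and 8.2% to 23.8% lower, with 31.7% higher without 1 h replicate 2 and 3 h replicate 2. At 24 h they were 20.2% to 42.2% higher and 8.9% to 21.9% lower. Genes that rose were called lower at 24 h in 12.7% to 31.6%, and genes that fell higher in 25.7% to 37.4%. The extremes of 72.4%, 30.7%, 23.8%, 42.2%, 21.9% and 12.7% came without 1 h replicate 1, where fewer genes were called.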

Other observations

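The genes in this section were chosen after their values were seen, and no theme is claimed for them. CLK1 and CLK4, kinases of splicing factors, rose by 0.99 ± 0.10 and 0.75 ± 0.11 (adjusted p = 1.72e-06 and 0.000263), and CLK1 went from 42.9 and 40.4 CPM to 76.5, 85.3 and 86.9 CPM and back to a mean of 50.9 CPM at 6 h. Their relatives CLK2 (0.35, adjusted p = 0.0846) and CLK3 (0.26, adjusted p = 0.108) were not called.

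PMEPA1 (118 and 124 CPM against 205, 203 and 197 CPM; 0.74 ± 0.06, adjusted p = 1.14e-07), a gene that restrains TGF-beta signalling, rose, while the inhibitory SMAD7 was called lower (-0.40, adjusted p = 0.015). The mean of PMEPA1 was 54.1 CPM at 24 h against 122 CPM at 0 h. NKILA, a long noncoding RNA described as an inhibitor of NF-kB signalling, rose from 1.20 and 0.93 CPM to 2.37, 2.80 and 2.58 CPM (1.26 ± 0.32, adjusted p = 0.0212). NKILA overlaps PMEPA1 on the opposite strand and both had fractional counts in 10 libraries, so with the strand setting not given their reads cannot be told apart where they overlap. CITED2, which encodes a transcriptional coregulator, fell from 68.4 and 56.3 CPM to 35.1, 29.7 and 37.8 CPM (-0.87 ± 0.10, adjusted p = 1.08e-05). The kinase genes PIM1 (-0.70) and WEE1 (-0.74) also fell, and WEE1, like ZNF93, had a mean at 1 h (55.9 CPM) above that of 39.0 CPM at 0 h and that of 33.6 CPM at 3 h.

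LINC02029 had counts of 0 and 3 at 1 h, 10, 15 and 18 at 3 h, after 10, 5 and 11 at the start. The ratio of 3 h to 1 h was 11 with a 95% exact counting interval of 3.51 to 55.2. Of 475 tested genes with a ZNF symbol, 33 (6.95%) rose and 6 (1.26%) fell, beside 3.17% and 2.56% of all genes tested, with a median log2 fold change of 0.076.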
